A study of Drosophila melanogaster with 3 samples.

Results

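The 10 genes described here encode the nuclear receptors of the Drosophila ecdysone cascade: EcR, usp, Eip75B, Eip78C, Hr3, Hr4, Hr38, Hr39, Hr78 and ftz-f1. They were taken by name from the Ensembl annotation, in which they are 10 of 18164 genes, and each was examined over its gene body plus 10 kb on either side. Peaks were assigned to a gene by their summit, the position of highest signal. Within these 10 windows lay 39 peaks that passed the irreproducible discovery rate (IDR) threshold of the submitters, a measure of agreement between replicate libraries. Each of the 39 had the same rank by signal in the IDR list as in the list from the pooled libraries. An IDR peak here is thus a peak of high pooled signal, and it need not rank alike in every library. Hr4 held 11 of them and Eip75B 9, and Hr39 and Hr78 held 0.

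Steroid hormone pulses time the moults and metamorphosis of the fly. The hormone 20-hydroxyecdysone binds EcR, which works as a heterodimer with usp, the fly counterpart of the vertebrate retinoid X receptors. The pair switches on a first set of regulatory genes that includes Eip75B. A later set, with Eip78C, Hr3 and Hr4, follows and leads to expression of ftz-f1 in prepupae as the hormone falls, and ftz-f1 in turn makes tissues competent for the next pulse. Several of these genes are long, with alternative promoters spread over large introns.

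The study mapped chromatin recovered with salr, the spalt-related protein, a DNA-binding zinc finger factor, by chromatin immunoprecipitation and sequencing. All material came from a single transgenic line carrying salr with green fluorescent protein at its C terminus, taken as whole prepupae of both sexes at 24 hours, and what the 24 hours are counted from is not given in the sources used here. There were 3 libraries from 3 biological replicates, numbered 1 to 3 as in the labels, and they form 1 group, so no comparison between conditions was possible. The labels contradict each other: a free-text field calls each library an input control, whereas the assay title and antibody field describe immunoprecipitated material. Tissues were mixed, so a peak cannot be tied to a cell type. Each library and the pool of all 3 has a list of 30000 peaks that includes background by design, and all lists were derived with the same control. The files hold no read counts, so the depth is unknown. Signals are given here as relative signal, the signal of a peak divided by the median signal of the same list, so that the median peak of a list has the value 1. A summit was matched to a library where that library listed a summit within 100 bp.

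The sequences below are the summit base and 50 bp on either side of it for the summits of the strongest IDR peaks of Hr4, Eip78C, Eip75B and usp, then for 4 further peaks that hold one of the searched words. They come from the Release 6 RefSeq genome (dm6). Capitals mark the searched word. One is AGGTCA, the core element recognised by many nuclear receptors, which appears as TGACCT where it lies on the minus strand. Another is GAGAGA, bound by the Trl protein, which appears as TCTCTC on the minus strand. The last is AATATT, an A/T-rich word linked to spalt zinc fingers. Sequences with no capitals hold none of the 6 words searched.
Hr4, chrX:1951871-1951971, plus strand: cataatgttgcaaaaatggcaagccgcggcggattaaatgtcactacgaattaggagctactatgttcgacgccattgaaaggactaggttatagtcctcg
Hr4, chrX:1947689-1947789, plus strand: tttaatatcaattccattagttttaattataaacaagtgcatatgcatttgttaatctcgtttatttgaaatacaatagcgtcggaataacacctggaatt
Hr4, chrX:1948663-1948763, plus strand: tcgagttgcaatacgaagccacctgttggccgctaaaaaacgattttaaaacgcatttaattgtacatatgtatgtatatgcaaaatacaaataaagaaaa
Eip78C, chr3L:21253837-21253937, plus strand: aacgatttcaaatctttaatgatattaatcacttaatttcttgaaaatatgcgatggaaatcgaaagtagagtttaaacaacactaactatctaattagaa
Eip75B, chr3L:18009108-18009208, plus strand: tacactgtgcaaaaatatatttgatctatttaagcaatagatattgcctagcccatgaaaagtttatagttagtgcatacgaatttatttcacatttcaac
usp, chrX:2050224-2050324, plus strand: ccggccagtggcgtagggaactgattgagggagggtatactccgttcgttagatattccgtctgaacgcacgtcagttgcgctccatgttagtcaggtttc
Eip75B, chr3L:18063239-18063339, plus strand: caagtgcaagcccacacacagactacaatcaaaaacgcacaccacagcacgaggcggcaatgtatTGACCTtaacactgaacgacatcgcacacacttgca
Eip75B, chr3L:17992341-17992441, plus strand: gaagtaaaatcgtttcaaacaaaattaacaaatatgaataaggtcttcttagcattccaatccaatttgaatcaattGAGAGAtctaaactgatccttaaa
ftz-f1, chr3L:18790959-18791059, plus strand: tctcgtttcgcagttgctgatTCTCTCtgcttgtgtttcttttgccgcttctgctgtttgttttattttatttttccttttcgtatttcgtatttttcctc
Hr4, chrX:1940165-1940265, plus strand: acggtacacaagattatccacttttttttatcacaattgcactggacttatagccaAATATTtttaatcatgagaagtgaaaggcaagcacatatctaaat

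The first 3 Hr4 sequences come from a single intron, and none of the 6 leading sequences held any searched word. The word AGGTCA occurred at 1 of the 39 summits (2.56%, 95% Wilson interval 0.454 to 13.2%, which like the other intervals covers counting error only), beside 1.59% of all IDR summits. This was the summit in intron 1 of Eip75B-RF printed above. GAGAGA occurred at 3 summits (7.69%, interval 2.65 to 20.3%, 5.63% of all IDR summits), 1 in Eip75B and 2 in ftz-f1. AATATT occurred at 2 summits, 1 in EcR and 1 upstream of Hr4 (5.13%, interval 1.42 to 16.9%, 14.8% of all IDR summits). The longer words TCAAGGTCA, the monomer site of ftz-f1 type receptors, TTATGAAAT and TATCGATA occurred at 0 of 39 summits, which allows a share of up to 8.97%. They occurred at 0.0260%, 0.521% and 1.12% of all IDR summits. Both strands were searched, TCAAGGTCA contains AGGTCA, and a match or its absence says only which letters are in the window.

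**Figure D1:**
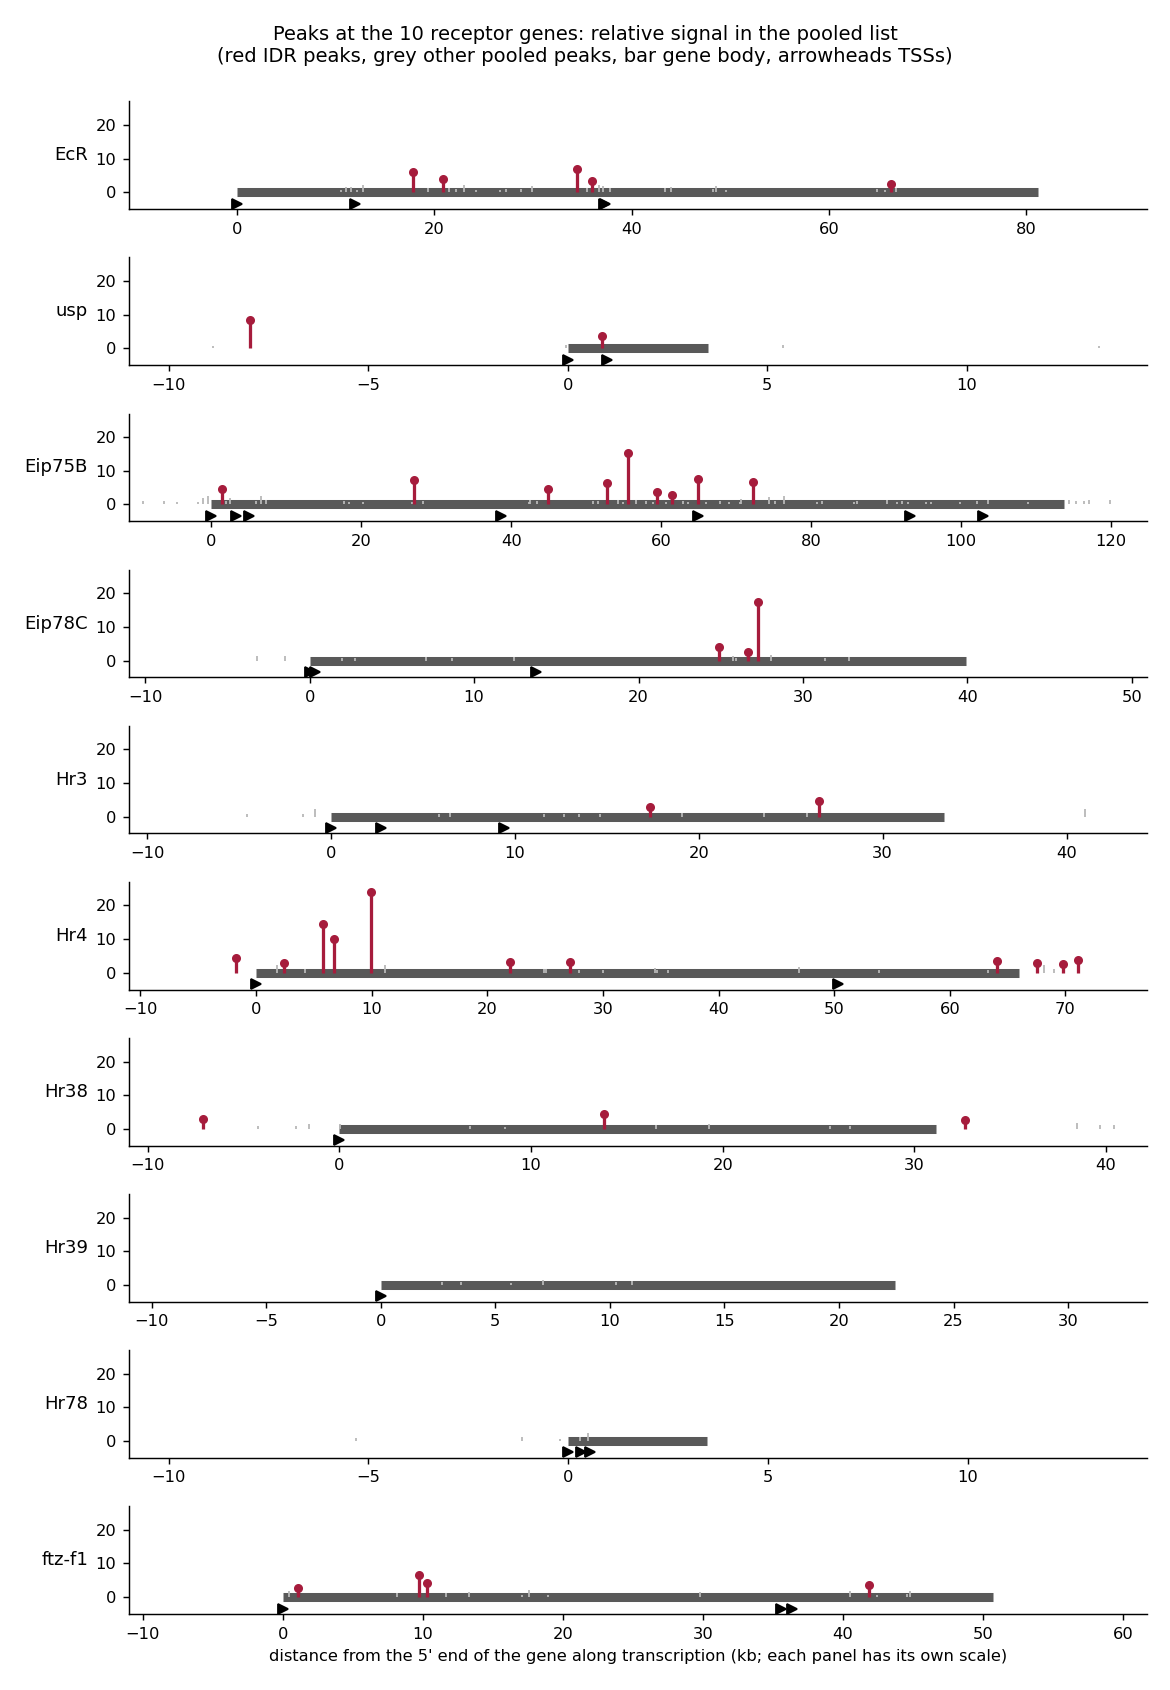
Peaks along each receptor gene, with distance from the 5' end of the gene along transcription in kb on the x axis and relative signal in the pooled list on the y axis. Red stems are IDR peaks, grey ticks are other pooled peaks, the bar is the gene body and arrowheads are transcription start sites. The tallest stems, at Hr4, Eip78C and Eip75B, stand inside the genes, and Hr39 and Hr78 have no red stem.

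Of the 39 IDR summits, 32 lay inside the receptor gene and 7 in its flanks. Introns held 28 (71.8%), the receptor gene's own promoters (within 1000 bp of one of its transcription start sites, TSSs) held 2, and a 5' UTR and a 3' UTR held 1 each. No summit (0) lay in coding sequence. The median distance to the nearest TSS of the receptor gene was 8917 bp, and 30 summits (76.9%) were more than 5000 bp away. The intron share and these distances were not computed for all IDR summits or for other long genes. The receptor genes had a median length of 36624.5 bp, beside 1656 bp for all genes, and the part of gene length was not tested. All 7 flank summits lay within 1000 bp of a TSS of another gene, as did 10 summits in all. Counting the TSSs of every gene, 11 of 39 summits were at a promoter (28.2%, Wilson interval 16.5 to 43.8%), beside 49.6% of all IDR summits (interval 48.1 to 51.2%). With the window set to the gene body alone, which drops the flank summits, the share was 12.5%.

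The windows were denser in IDR summits than the remaining sequence. They cover 645.5 kb, or 0.482% of the chromosome arms, and held 1.02% of the IDR summits (Wilson interval 0.744 to 1.39%). This is 6.04 summits per 100 kb against 2.85 outside, a ratio of 2.12. The ratio was 1.75 without Hr4 and 1.56 without Hr4 and Eip75B. For each library, as many of its strongest peaks were taken as there are IDR peaks, and the ratios were 2.12, 2.56 and 2.01 in libraries 1, 2 and 3. Their mean was 2.23 ± 0.291 (SD, n = 3), above 1 in 3 of 3 libraries. An exact two-sided sign-flip test of the log2 ratios gave p = 0.25, the smallest that 3 libraries allow. Over the whole lists the ratios were 1.59, 1.69 and 1.03 (mean 1.44 ± 0.357, SD, n = 3), so library 3 was near 1. The windows also had a larger share of IDR peaks among pooled peaks. It was 39 of 201 (19.4%, interval 14.5 to 25.4%), against 12.8% of the whole pooled list. By gene the share ran from 0% at Hr39 and Hr78 to 42.3% at Hr4 (11 of 26), and it was not computed without Hr4.

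**Figure D2:**
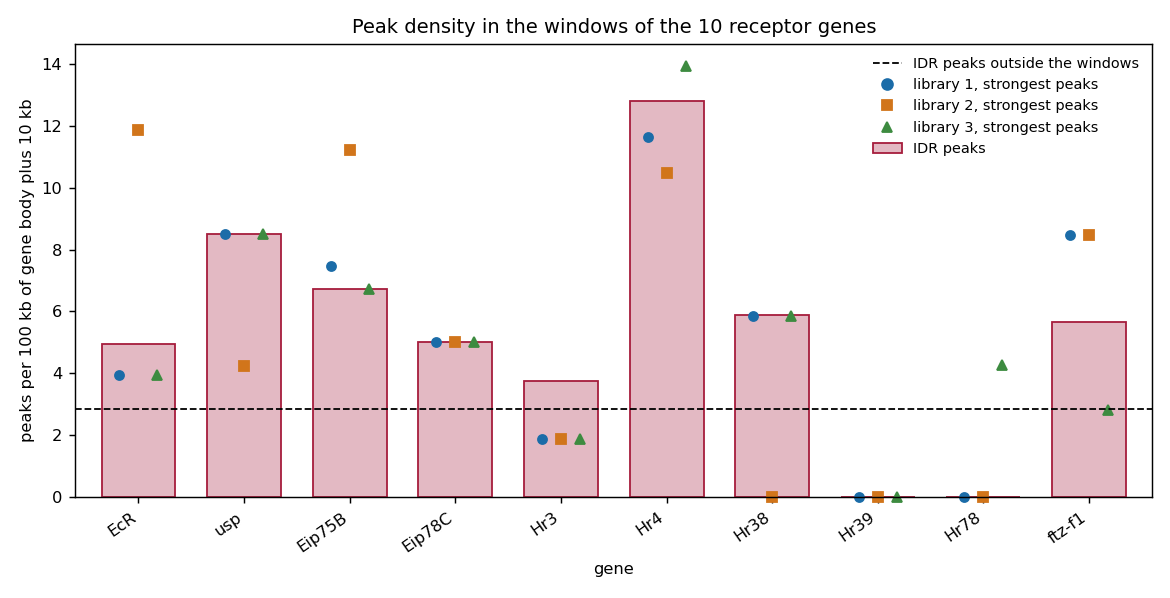
Peaks per 100 kb of gene body plus 10 kb (y axis) for each receptor gene (x axis). Bars are IDR peaks, symbols are the strongest peaks of each library, and the dashed line is the density of IDR peaks outside the windows, 2.85 per 100 kb. Hr4 has the tallest bar at 12.8, and library 2 stands above the other libraries at EcR and Eip75B and at 0 for Hr38.

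IDR summits in 8 of the 10 windows compare with 48.6% of all genes, 59.8% of the 4894 genes at least as long as Hr78, the shortest member, and 67.1% of the 839 protein-coding genes between Hr39 and Eip75B in length. In that last length range, chosen after the values were seen, lie 8 of the 10 receptors, of which 7 had an IDR summit. Summits at an own promoter were found for 2 of the 10 genes, beside 13.5%, 23.1% and 27.7% in the same sets. Of the 8 receptors in the length range, 1 had one. A longer window covers more sequence in which a summit can lie, so the median number per 100 kb was compared too. It was 5.33 for the 8 receptors in the length range and 2.04 for the 839 genes. Counted over all genes, 16 of 18164 had as many IDR summits as Hr4 or more (0.0881%), 41 as many as Eip75B (0.226%), 455 as many as EcR (2.50%) and 937 as many as ftz-f1 (5.16%). For Eip78C and Hr38 the number was 1944 (10.7%), for usp and Hr3 it was 4185, and Hr39 and Hr78, with 0 summits, are matched by all 18164 genes. These ranks are not adjusted for length. The window was 86.0 kb for Hr4 and 133.7 kb for Eip75B, beside a median of 21.7 kb over all genes.

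EcR, the ecdysone receptor itself (FBgn0000546, dm6 2R from 6087873 to 6169087, minus strand), held 5 IDR summits, 31 pooled summits and 39, 49 and 22 summits in libraries 1, 2 and 3. All 5 IDR summits lay in the long intron 3 of EcR-RA, between 6095072 and 6151829, and none was within 1000 bp of an EcR TSS. The summit at 6102763 also lay in the shorter intron 2 of EcR-RB, 6095072 to 6122881, and was intronic in all 6 EcR transcripts. The strongest spanned 6134496 to 6134839, 2746 bp upstream of the shared TSS of EcR-RB and EcR-RC. Its relative signals were 6.36, 2.60 and 7.67 in libraries 1, 2 and 3 (mean 5.54 ± 2.63, SD, n = 3), so library 2 was the low one. The second, 6151106 to 6151449 5851 bp downstream of the EcR-RD and EcR-RE TSS, had 4.82, 3.86 and 6.11 (4.93 ± 1.13, SD, n = 3).

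The remaining EcR summits had another profile, with library 2 highest by far. The summit at 6148212 had relative signals of 1.43, 5.57 and 1.65 (2.88 ± 2.33, SD, n = 3). The summit at 6133066, 1144 bp upstream of the EcR-RB and EcR-RC TSS, had 2.32, 5.02 and 0.922 (2.75 ± 2.08, SD, n = 3). The summit at 6102763 had 1.73, 4.44 and 0.930 (2.36 ± 1.84, SD, n = 3). Library 3 was between 0.922 and 1.65 and library 1 between 1.43 and 2.32 at these summits, and the sequence was G/C-rich, 63.4%, 52.5% and 60.4% within 50 bp of the summit. The strongest summit of EcR, lowest in library 2, was at 27.7%. The second, also lowest in library 2, was at 48.5%, not far below the 52.5% of a summit highest in library 2. EcR held 12 of the strongest peaks of library 2 but 4 of those of library 1 and 4 of those of library 3.

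Base composition was then set beside the library 2 values as a description. Across the 34 receptor summits matched in all libraries, G/C content and the log2 ratio of library 2 to the geometric mean of libraries 1 and 3 had a Spearman rho of 0.424, and across all 3182 such IDR summits rho was 0.288. The summits share the same 3 libraries, and this relation was looked at after the values were seen. The part of base composition in the library 2 values of EcR was not tested. Receptor summits were on average 39.6 ± 10.4% G/C (SD over 39 summits), beside 36.3 ± 9.42% for all IDR summits.

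**Figure D3:**
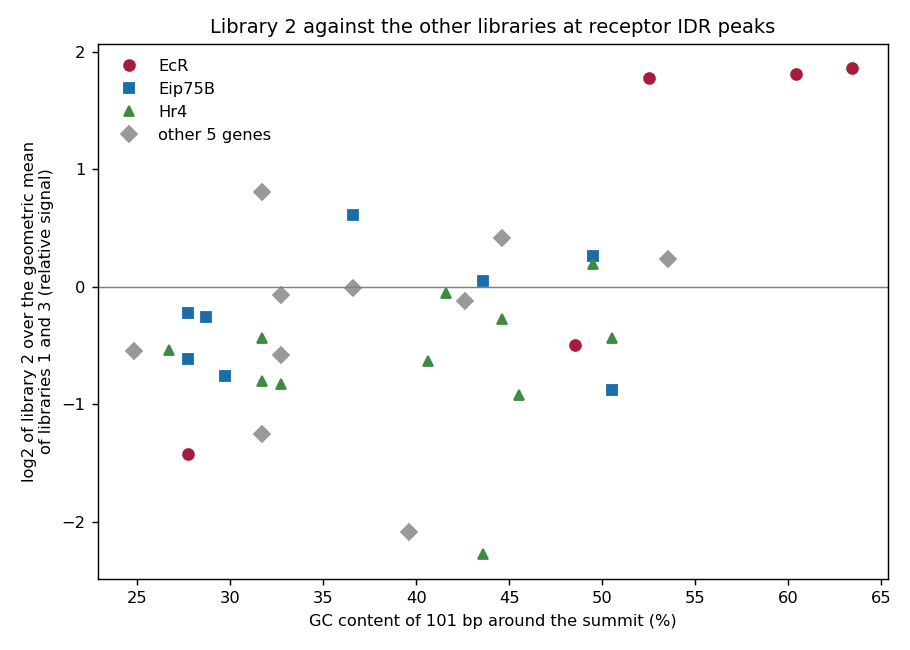
G/C content within 50 bp of the summit in percent (x axis) against the log2 of the relative signal in library 2 over the geometric mean of libraries 1 and 3 (y axis), a point for each of the 34 receptor IDR summits matched in all 3 libraries. The highest 3 points are EcR summits above 50% G/C. The strongest EcR summit, at 27.7%, is low.

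The usp gene (FBgn0003964, X from 2038798 to 2042311, minus strand), which encodes the EcR partner, is short and held 2 IDR summits among 6 pooled ones. The stronger, X from 2050186 to 2050376, lay 7963 bp upstream of usp-RB inside CG4313 and 154 bp from the TSS of moody, a G protein-coupled receptor gene of the blood-brain barrier. Its relative signals were 6.47, 7.59 and 6.44 (6.83 ± 0.654, SD, n = 3), close to each other in all libraries. The other, X from 2041284 to 2041627, lay 144 bp upstream of the usp-RA TSS and 855 bp downstream of the usp-RB TSS. Its relative signals were 2.68, 2.10 and 3.66 (2.81 ± 0.787, SD, n = 3). That summit also lay 412 bp from a TSS of CG4313 and 855 bp from a TSS of Actn, the alpha-actinin gene that overlaps usp, so neither usp summit can be assigned to usp alone.

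Eip75B (FBgn0000568, 3L from 17950953 to 18064696, minus strand), an early gene for a haem-binding receptor that opposes Hr3, is the longest of the 10 at 113744 bp and has 7 TSSs. It held 9 IDR summits, 65 pooled summits and 54, 79 and 41 summits in libraries 1 to 3. Of the 9, 6 lay within intron 1 of Eip75B-RG, 17992997 to 18025330. The strongest, 18009072 to 18009301, was in that intron 9337 bp upstream of the Eip75B-RC TSS and ranked 160 in the IDR list. Its relative signals were 12.9, 11.1 and 13.7 (12.5 ± 1.33, SD, n = 3), a narrow range in which each library placed it near the same rank (158, 156 and 188).

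The second Eip75B peak, 17999743 to 17999831, had its summit 50 bp downstream of the Eip75B-RC TSS. It was the strongest IDR peak at any own promoter of the 10 genes, with relative signals of 8.20, 4.32 and 5.36 (5.96 ± 2.01, SD, n = 3). The third, at 18037662 in intron 1 of Eip75B-RB, had 5.99, 3.97 and 7.58 (5.84 ± 1.81, SD, n = 3) and lay 618 bp from a TSS of lncRNA:CR45922. The fourth, at 17992391 in intron 2 of Eip75B-RB, had 6.34, 5.02 and 5.44 (5.60 ± 0.674, SD, n = 3). The libraries overlapped broadly among these peaks, so their order is not resolved. The other 5 had mean relative signals from 2.33 to 5.21, and one of them, at 18005284, was not matched in library 2.

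Eip78C (FBgn0004865, 3L from 21226609 to 21266503, plus strand), an early-late gene related to Eip75B, held 3 IDR summits, all in intron 1 of Eip78C-RB and 638 and 1730 bp apart. The strongest, 21253757 to 21254019, lay 13540 bp downstream of the Eip78C-RB TSS and ranked 116 in the IDR list. Its relative signals were 15.3, 10.7 and 16.0 (14.0 ± 2.86, SD, n = 3), high in every library. The summit at 21251519 had 2.53, 3.87 and 3.33 (3.24 ± 0.675, SD, n = 3). The summit at 21253249 had 3.41, 0.824 and 3.58 (2.61 ± 1.55, SD, n = 3), so in library 2 it was below the median peak. No list, IDR, pooled or of a library, had a summit within 1000 bp of any of the 3 Eip78C TSSs.

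Hr3 (FBgn0000448, 2R from 10203995 to 10237348, minus strand), an early-late gene whose product activates ftz-f1, held 2 IDR summits in intron 2 of Hr3-RA. The stronger, 10210735 to 10210880, had relative signals of 6.66 and 3.55 in libraries 1 and 2 and no match in library 3 (5.11 ± 2.20, SD, n = 2). It lies 17131 bp from the Hr3-RA TSS and 521 bp from a TSS of lncRNA:CR46322, inside CG12912 and CG46321. The weaker, at 10220022 and inside the same pair of genes, had 2.07, 1.96 and 2.20 (2.08 ± 0.124, SD, n = 3). It had the smallest spread of the 39 summits, and was among the strongest peaks of 0 libraries.

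Hr4 (FBgn0264562, X from 1941940 to 2007956, plus strand), an early-late gene for a repressor of early genes, had the highest density of IDR summits, 12.8 per 100 kb. Its 11 IDR summits were 42.3% of its 26 pooled summits, and the libraries held 22, 28 and 27 summits there. The 3 strongest lay in intron 2 of Hr4-RC, 1942894 to 1953280. The first, 1951781 to 1952053, was 9981 bp downstream of the TSS shared by Hr4-RC and 6 other transcripts and ranked 50 in the IDR list. Its relative signals were 20.0, 17.2 and 21.7 (19.6 ± 2.31, SD, n = 3). This was the highest value at any of the 10 genes in every library, with ranks of 55, 51 and 52.

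The second Hr4 peak, 1947627 to 1947874, had relative signals of 11.2, 8.97 and 15.1 (11.8 ± 3.12, SD, n = 3). The third, 1948610 to 1948810, had its summit 974 bp from the second and relative signals of 7.58, 6.33 and 9.73 (7.88 ± 1.72, SD, n = 3). In each library the order of these peaks was the same. The fourth, 1940043 to 1940386, lay 1725 bp upstream of the same TSS, 92 bp from a TSS of CG3587 and 175 bp from one of CG3857, with 3.96, 2.25 and 3.88 (3.37 ± 0.963, SD, n = 3). The other 7 had mean relative signals from 2.22 to 3.39. Of these, 3 lay downstream of Hr4 at promoters of PIG-K and east, 1 in the 3' UTR and 3 in introns. Neither Hr4 TSS had an IDR or pooled summit within 1000 bp.

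Hr39 (FBgn0261239, 2L from 21237250 to 21259675, plus strand), a paralogue of ftz-f1, held 0 IDR summits and 6 pooled summits, all in introns. The strongest pooled one, at 21244342, ranked 7624 and had relative signals of 1.06 and 1.00 in libraries 1 and 2, at the level of the median peak. Library 3 held 0 summits in the window, and libraries 1 and 2 held 9 and 11. Hr78 (FBgn0015239, 3L from 21494019 to 21497494, minus strand), an orphan receptor needed for ecdysteroid signalling at metamorphosis, held 0 IDR summits and 5 pooled ones. The strongest of those, at 21496997 and 56 bp upstream of the Hr78-RF TSS, ranked 4100 in the pooled list, just below the IDR peaks. Its relative signal was 3.00 in library 3 and 1.04 in library 2, with no summit within 100 bp in library 1. In the absence of read counts, these genes had no peak past the IDR threshold in these lists, which does not show that salr was absent.

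Hr38 (FBgn0014859, 2L from 20683462 to 20714588, minus strand), the fly counterpart of the NR4A receptors and another partner of usp, held 3 IDR summits. The strongest, 20700607 to 20700950 in intron 1 of Hr38-RB, had relative signals of 2.45, 1.69 and 6.64 (3.59 ± 2.66, SD, n = 3), so library 3 alone was high. A summit 7101 bp upstream, at 20721689 and 225 bp from a TSS of lncRNA:CR45306, had 1.57, 1.97 and 2.73 (2.09 ± 0.589, SD, n = 3). A summit downstream, at 20681915 and 69 bp from a TSS of Cen, had 3.11 and 0.817 in libraries 1 and 2 and no match in library 3. Of the strongest peaks of each library, the Hr38 window held 3, 0 and 3.

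ftz-f1 (FBgn0001078, 3L from 18750607 to 18801309, minus strand), the competence factor of the prepupa, held 4 IDR summits among 16 pooled ones. The strongest, 18791483 to 18791635 in intron 2 of ftz-f1-RB, had relative signals of 6.19, 7.35 and 2.86 (5.47 ± 2.33, SD, n = 3). The second, 18790973 to 18791089 in the same intron, had 3.12, 3.51 and 4.03 (3.55 ± 0.456, SD, n = 3), so these neighbours were in the opposite order in library 3. The third, at 18759421 in intron 1 of ftz-f1-RA, had 3.63 and 4.46, and the fourth, at 18800225 in the 5' UTR 1084 bp from the ftz-f1-RB TSS, had 2.45 and 2.66 in libraries 1 and 2. Neither was matched in library 3. The window held 27, 21 and 6 summits in libraries 1, 2 and 3, so library 3 listed few peaks there of any strength.

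**Figure D4:**
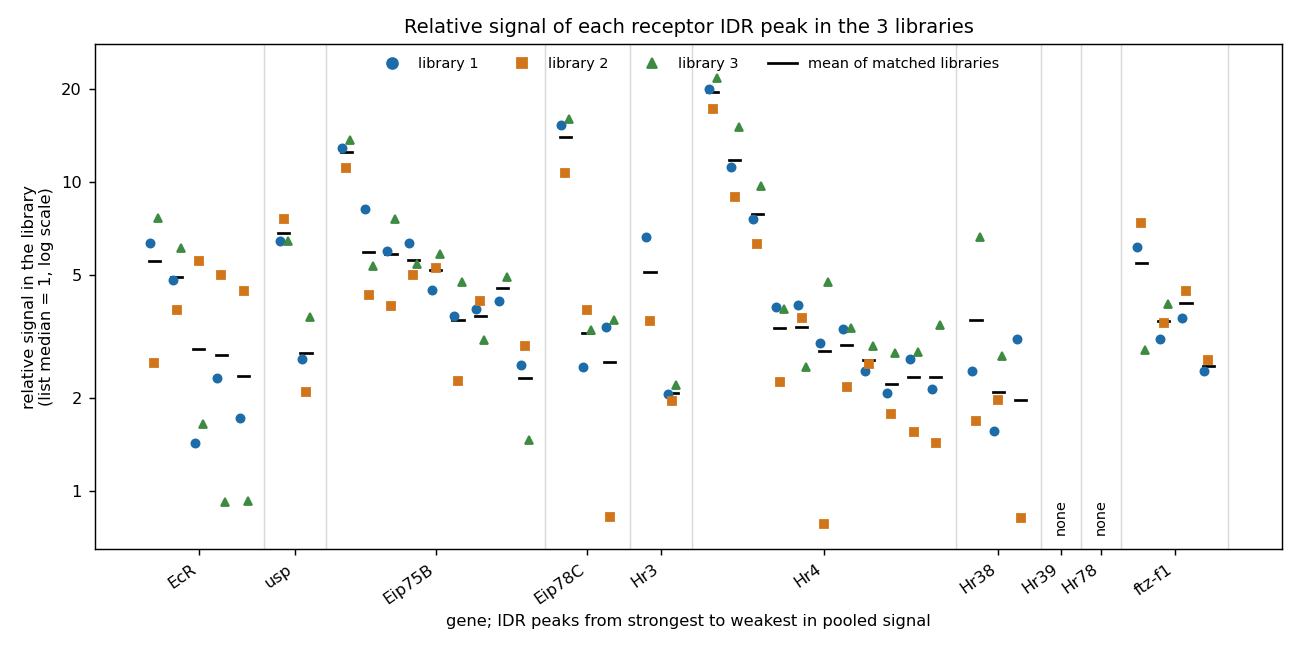
Relative signal in each library (y axis, log scale, list median at 1) of every receptor IDR peak, ordered within each gene (x axis) from the strongest to the weakest pooled signal. Symbols are libraries and bars the mean over libraries with a match. The leading peaks of Hr4, Eip78C and Eip75B are above 10 in all 3 libraries, and at 3 EcR peaks library 2 stands well above the others.

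Ordered by the mean relative signal of the strongest IDR summit, the genes ran Hr4, Eip78C, Eip75B, usp, EcR, ftz-f1, Hr3 and Hr38. The lowest library of Hr4 (17.2) was above the highest of Eip78C (16.0), and the lowest of Eip75B (11.1) was above the highest of usp (7.59). Every other pair of neighbours in that order overlapped, so these ranges did not separate Eip78C from Eip75B, or usp, EcR, ftz-f1, Hr3 and Hr38 from each other. Compared within each library, usp was above ftz-f1 and EcR above Hr38 in all 3 libraries. Hr3 was above both Hr38 and EcR in libraries 1 and 2, where it was matched. The remaining pairs among these genes, and Eip78C and Eip75B, changed order between libraries. The median over the 8 genes was 6.19. Over the receptor summits matched in libraries 1, 2 and 3 (39, 38 and 35), the median relative signal was 3.63, 3.59 and 3.88. The medians over all matched IDR summits were 3.41, 3.01 and 4.21. The receptor median was thus above that of all IDR summits in libraries 1 and 2 and below it in library 3. In the pooled list, which covers all 39 receptor summits, it was 4.03, beside 4.06 for all IDR summits. Library 3 gave the highest value at 23 of 39 summits (59.0%), library 2 at 10 (25.6%) and library 1 at 6 (15.4%). Over the 3837 IDR summits matched in any library, the shares were 56.8%, 18.1% and 25.1%, so library 3 was most often highest there too.

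Matches in all 3 libraries were found for 34 of the 39 summits (87.2%, Wilson interval 73.3 to 94.4%), beside 82.9% of all IDR summits. At these genes the IDR peaks were those of highest signal in the pool of the same libraries, so this is a description. Library 1 matched 39, library 2 matched 38 and library 3 matched 35. The unmatched ones were 1 of Eip75B in library 2 and 1 of Hr3, 1 of Hr38 and 2 of ftz-f1 in library 3. Presence among the strongest peaks of all 3 libraries was found for 21 (53.8%, interval 38.6 to 68.4%), beside 48.0% of all IDR summits. Of the 162 pooled summits that did not pass IDR, 16 were matched in all libraries, 60 in 2, 74 in 1 and 12 in none.

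The 10 genes have 29 distinct TSSs, and an IDR summit lay within 1000 bp of 3 of them, usp-RA, usp-RB and Eip75B-RC. The usp pair shares a summit, and neighbouring TSSs of EcR, Hr78 and ftz-f1 share summits of the other lists. The same counts were not made over all 23581 annotated TSSs, so those given here describe these genes only. A pooled summit lay that close to 17 TSSs, and each of libraries 1, 2 and 3 had one at 21, 23 and 17. There were 17 TSSs with a summit in all 3 libraries, though not always the same summit. At the Hr3-RA TSS the strongest lay 599 and 194 bp upstream and 604 bp downstream in libraries 1, 2 and 3. At the Hr4-RC TSS they lay 433 bp downstream, 90 bp upstream and 597 bp downstream. The 6 TSSs with none in any library were EcR-RA, Eip75B-RG, the 3 of Eip78C and the one of Hr3-RC and Hr3-RI. Just outside the IDR list, a pooled summit 428 bp upstream of Eip75B-RF ranked 3842, with a relative signal of 1.84 in library 1, no match in library 2 and 3.33 in library 3. The 1 summit that library 2 listed within 1000 bp of that TSS, 21 bp upstream of it, had 0.859. At the Hr38 TSS each library listed a separate summit, 273 bp downstream at 1.40 in library 1, 111 bp upstream at 1.75 in library 2 and 89 bp downstream at 2.45 in library 3, where it was among the strongest peaks. At the Hr39 TSS the strongest summits had 1.65 and 1.21 in libraries 1 and 2, and library 3 listed none.

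**Figure D5:**
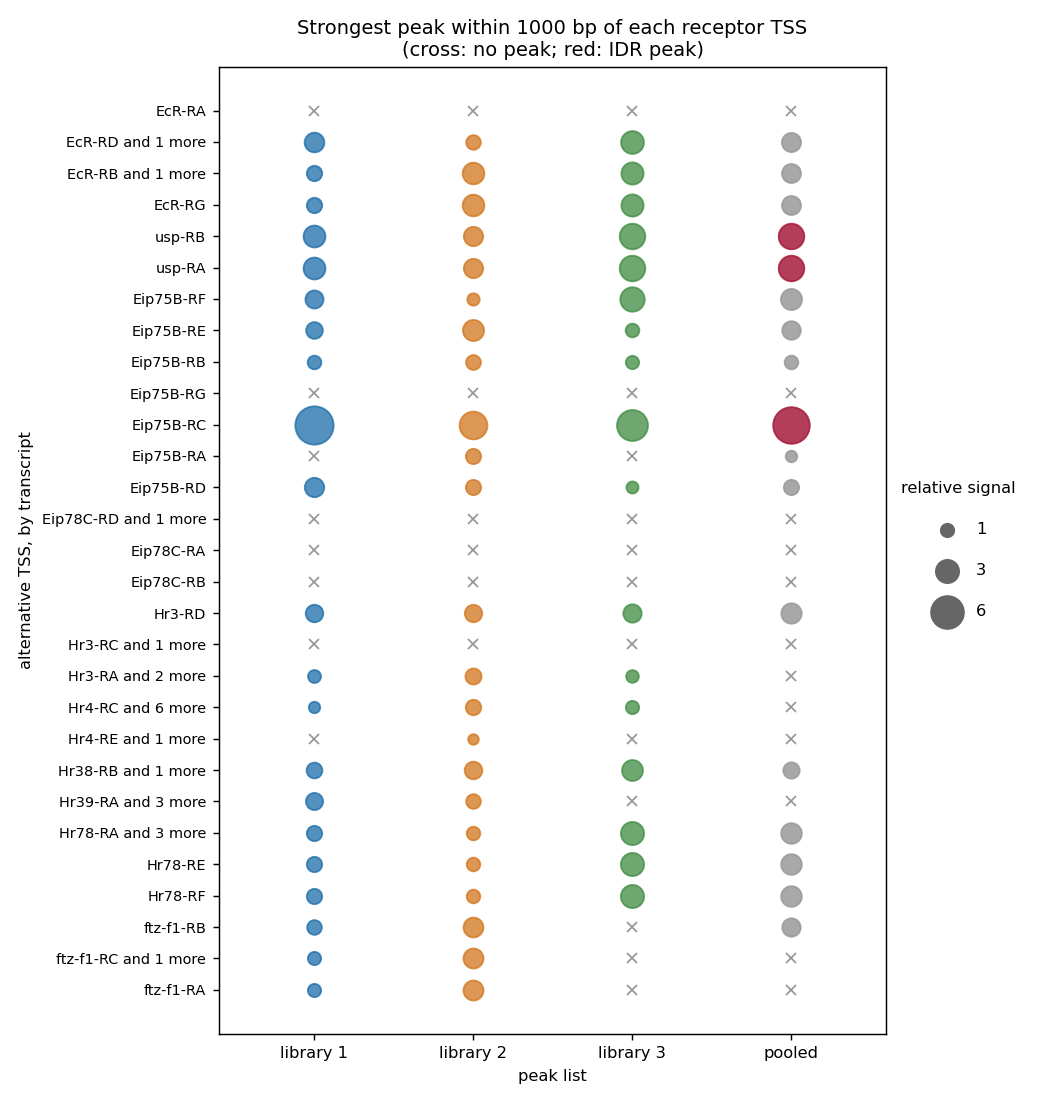
Strongest peak within 1000 bp of each of the 29 TSSs (y axis, named by transcript) in the 3 libraries and the pooled list (x axis). Circle area grows with relative signal, crosses mean that no peak was listed, and red circles are IDR peaks. Eip75B-RC has the largest circles in the libraries, and the Eip78C rows hold crosses only.

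The genes most like Hr4 in their counts of summits were Tlk, a chromatin kinase gene, Smr, which encodes a nuclear receptor corepressor, and shn, which encodes a zinc finger protein of Dpp signalling. Likeness was the Euclidean distance over 5 values, the log2 counts of the strongest summits in each of the 3 libraries, the log2 count of IDR summits and the log2 window length. The distances were 0.32, 0.36 and 0.42. Tlk held 11 IDR summits, Smr 9 and shn 13.

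Other genes of the pathway were counted in 4 lists that were chosen with earlier results of these data known. Of 11 other nuclear receptor genes, 6 had an IDR summit in the window and 3, Hr96, ERR and Hnf4, at a promoter. The Hr96 summit, 99 bp upstream, had a relative signal of 7.81 ± 1.83 (SD, n = 3). Of 12 genes of hormone synthesis, uptake and turnover, 8 had a summit in the window and 1, the transporter gene E23, at a promoter (9.64 ± 3.89, SD, n = 3). Of 8 receptor cofactor genes, 4 had a summit in the window and 1, tai, at a promoter. Within these, Smr had 9 summits, the strongest 8795 bp upstream with 26.5 ± 9.0 (SD, n = 3).

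Of 16 hormone response genes, 12 had a summit in the window and 3, Eip93F, Eip74EF and br, at a promoter. The strongest summit near Eip93F, 69 bp upstream of a TSS, had relative signals of 5.95, 13.4 and 5.72 (8.34 ± 4.36, SD, n = 3), so library 2 was the high one. ImpL2, which encodes an insulin-binding protein, had an intronic summit at 16.6 ± 0.856 (SD, n = 3). Edg78E, a cuticle protein gene, had a summit 6762 bp upstream at 23.9 ± 2.73 (SD, n = 3). Beside the 48.6% of all genes with a summit in the window and 13.5% with one at a promoter, the lists differ in gene length, and no test was made of them. The leading summit of Eip63E is also that of ImpE2, so it counts for each. TSSs of other genes near the summits of these lists are not given, so a distant summit may lie nearer to another gene. Median densities were 2.30 IDR summits per 100 kb for the other nuclear receptors, 4.57 for synthesis genes, 2.54 for cofactors and 4.75 for response genes, beside 5.33 for the 10 receptors.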

How the data were processed

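Peak lists on dm6 were made by the authors, per the file headers and labels: 1 per library, 1 from the pooled libraries and 1 of 3839 IDR peaks, all with the same control. Neither an aligner nor a peak caller is named in the sources used here. The deposited signal of a peak has no stated scale. It was used to rank peaks and, divided by the median signal of its list, as relative signal. Summits were placed with the offset deposited with each peak, and all 3839 IDR peaks were found in the pooled list. The 30000 peaks of the other lists are a fixed length, and depth is unknown, so no interval reflects it.

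Genes and TSSs came from Ensembl release 115 (BDGP6.54) without transposable element entries, and sequences from Release 6 RefSeq. Coordinates are 1-based. All 3 libraries form 1 group by the assay title; the library was the replicate. The labels say biological replicates but not whether they were separate collections. Summits were matched within 100 bp, and promoters reach 1000 bp from a TSS. "Strongest peaks" of a library are its 3839 highest. An intron is named by the shortest containing transcript intron. Up to 4 summits a gene are given in full by pooled signal, the rest by range. Of the list symbols, 4 were matched through RefSeq synonyms (phm as phtm, EcI as Oatp74D, nobo as GstE14, Eip71CD as MsrA). Members and lists were chosen with earlier results of these data known. Shares carry Wilson intervals (95%). Counting and matching were tested on simulated data first. Alternatives were other windows, promoter and matching distances, the stronger IDR peaks, other list lengths and leaving out each library. Software was matplotlib 3.10.9, pandas 2.3.3, numpy 2.4.6 and scipy 1.17.1 under Python 3.11.15.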

Additional observations from a re-analysis of the deposited data

How the results depend on the processing

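Over 57 alternatives to the reported values, 46 stayed close and 11 moved further. Close meant counts within 1.5 times, the tested library ratio on the same side of 1, and other values within their SD or interval. A reversal was defined only for the density ratio of IDR summits (9 alternatives) and that of the libraries (7), and 0 of those reversed. The 8 genes with an IDR summit stayed 8 in every alternative run. For IDR counts and density, leaving out a library kept the same IDR list, cut to peaks matched in the remaining libraries. No peaks were called anew, so these runs could change little and do not test the loss of a library. With the stronger part of the IDR list alone, the receptor summits numbered 19, genes with an own-promoter summit 1, and 94.7% of summits were matched in all libraries. With promoters reaching 2000 bp, 5 genes had an own-promoter summit. Matching within 50 bp left 56.4% of summits in all 3 libraries, and a 50% reciprocal overlap 71.8%; leaving out each library gave 87.2 to 97.4%, the highest without library 3. Summits at any promoter were 12.5% within the gene body alone. The median relative signal of the leading summits was 6.07 to 6.90 when each library was left out, and 1.81 when divided by the median of IDR-matched summits, which is another unit. The cause of these shifts was not tested, apart from those set by the alternative's construction. The density ratio of IDR summits ran from 2.06 to 2.53 under the alternatives with all 10 genes, and leaving out each library gave 2.13 to 2.31. Outside density from the pooled list's span (2.07) and the ratios without Hr4 (1.75) and without Hr4 and Eip75B (1.56) were chosen after seeing the data. The mean library ratio was 1.44 over whole lists, more than 1.5 times below the 2.23 of the strongest peaks, with library 3 near 1. No paired analysis was possible because there is only 1 group. The depth is unknown, and 3 libraries cannot give a p below 0.25.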
